A study of Rattus norvegicus with 15 samples.

Results

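MiR-26a and miR-26b are the miR-26 family of the array, 2 of its 350 rat miRNAs, and were taken by name. Both belong to the 134 miRNAs that were detected on enough arrays to be tested. The 15 arrays each carried liver RNA pooled from 4 rats. The rats had been fed ethanol over a long period (EtOH) or a pair-fed carbohydrate control diet (CHO), and liver was sampled at partial hepatectomy (PHx), the removal of part of the liver that makes the rest regrow, and again later. The EtOH groups were livers before PHx (3 pools) and at 1, 6, 12 and 24 h after PHx (1 pool each), and the CHO groups were livers before PHx (4 pools) and at 1, 6, 12 and 24 h after PHx (1 pool each). The labels and files used here name no strain, sex or age. Because animals were pooled, the spread between arrays is a spread between pools and holds no value for a single rat.

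A microRNA binds messages through its seed, bases 2 to 8 of the mature strand, and lowers their translation and stability. The miR-26 genes lie inside genes for small phosphatases of the RNA polymerase II carboxy-terminal domain, which also keep the retinoblastoma protein in its growth-restraining form. In human liver cancer cells miR-26a represses G1 cyclins, and it is one of the abundant miRNAs of normal liver, so a regenerating liver is a setting in which its level is of interest.

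The mature strands are printed because the 2 members share their seed (in capitals) and differ at few other bases, which bears on how separately an array can read them. They are RefSeq entries of the rat assembly GRCr8, where miR-26a-5p lies at chr8:127633063-127633084 inside Ctdspl and miR-26b-5p at chr9:83425723-83425743 inside Ctdsp1, both on the + strand.
miR-26a-5p: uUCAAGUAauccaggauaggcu
miR-26b-5p: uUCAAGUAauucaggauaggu
Counted from the 5′ end, 19 of the 21 positions compared are the same, and the differences from miR-26a to miR-26b are C11U and C21U. MiR-26a is 22 bases long and miR-26b 21. Of the 724 mature rat miRNAs in the RefSeq table, 2 carry the seed UCAAGUA, and they are these 2. Probe sequences were not used here, so how far a probe for one member also binds the other was not tested. The other arm of each precursor is given with its own bases 2 to 8 in capitals, since the array also carries probes named miR-26b*, the older style of name for a minor arm.
miR-26a-3p: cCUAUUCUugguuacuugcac
miR-26b-3p: cCUGUUCUccauuacuuggcuc
None of the 4 probes for miR-26b* had a spot well above background on any of the 15 arrays, so all values that follow are for the names miR-26a and miR-26b.

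Each member has 2 probes with 10 spots each, and all 150 spots of each of these probes over the 15 arrays were well above background. Values are scaled signals, the scanner's background-subtracted spot intensity after each array was set to a common 75th percentile, from the brighter probe of each miRNA. Between 108 and 131 of the 350 miRNAs were detected per array. One array stood apart before any comparison: on EtOH before PHx replicate 3 the spots of one probe varied by a median of 36.6%, against 6.75% to 8.62% on the other 14 arrays. For the 4 probes of the members the spot-to-spot variation on that array lay between 36.9% and 53.7%. The 75th percentile before scaling was 236.5 to 410.5 in EtOH livers before PHx and 397.3 to 515.5 in CHO livers before PHx. Of the 5 hepatocyte miRNAs listed, 4 were on the array, including miR-122, the dominant miRNA of hepatocytes, and all 4 were detected on every array.

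Ethanol-fed livers before PHx gave lower miR-26a signal in every pool than any control liver. MiR-26a read 1983, 1935 and 1792 in EtOH livers before PHx, against 2157, 2143, 2320 and 2122 in CHO livers before PHx. The means were 1903 ± 98.9 in EtOH livers (SD, n = 3) and 2185 ± 91.0 in CHO livers (SD, n = 4), and the groups did not overlap. In each diet replicates 1 and 2 before PHx share 1 animal, so these pools are not fully separate, though the SDs and tests treat them so. The log2 difference was -0.20 (SE 0.0668, 95% interval -0.35 to -0.05), a change of -12.9%, with an adjusted p of 0.0619 in limma. It did not pass the threshold of 0.05.

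MiR-26b showed the same order of diets. It read 1018, 976.4 and 779.1 in EtOH livers before PHx, against 1081, 1131, 1157 and 1131 in CHO livers before PHx. The EtOH pools averaged 924 ± 127.5 (SD, n = 3) and the CHO pools 1125 ± 31.9 (SD, n = 4), again without overlap, and the lowest EtOH value came from the array with the widely varying spots. The log2 difference was -0.29 (SE 0.0936, 95% interval -0.50 to -0.09), a change of -18.3%, with an adjusted p of 0.0534 in limma. Without EtOH before PHx replicate 3 the difference was -0.16 for miR-26a and -0.17 for miR-26b, neither past the threshold. Without EtOH before PHx replicate 1 that of miR-26b was -0.37 with a limma adjusted p of 0.0321, which does pass. That was the 1 call for miR-26b in 15 fits that each left out 1 array. The fit that passed keeps the array with the widely varying spots.

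**Figure D1:**
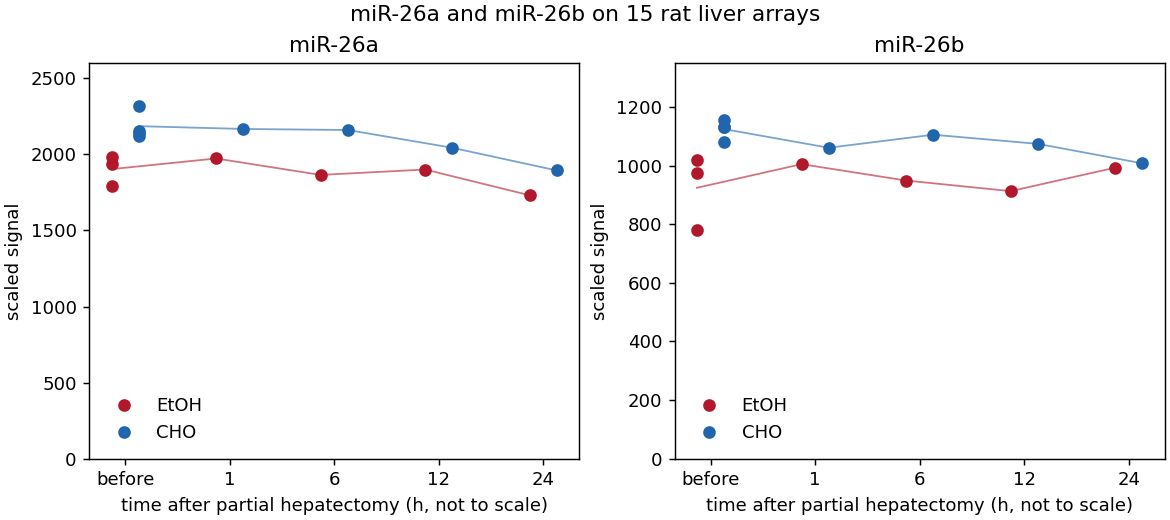
Scaled signal (linear, y axis) of miR-26a (left) and miR-26b (right) on each of the 15 arrays, by time after partial hepatectomy (x axis, not to scale). Each point is 1 pool of 4 rats and lines join the means, with EtOH points left of CHO points. Before PHx the EtOH points of miR-26a end at 1983 and the CHO points start at 2122.

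How unusual this is among the measured miRNAs can be read from the whole table. The diet threshold before PHx was passed by 21 of the 134 miRNAs (15.7%), of which 17 (12.7%) were lower in EtOH livers, and neither member was among them. Leaving out 1 array at a time gave 14 to 34 calls, and the 34 came without EtOH before PHx replicate 3. Complete separation with every EtOH pool below every CHO pool was seen for 29 miRNAs (21.6%), including both members. The median difference of all tested miRNAs was -0.08, so relative to it miR-26a was at -0.12 and miR-26b at -0.22. By unadjusted p miR-26b stood at place 24 and miR-26a at place 26 of 134. The exact permutation test of 3 against 4 pools gave p = 0.0571 (two-sided) for both members, which is the smallest value that design allows.

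Both slides held both diets, slide 1 the 1 h and 6 h pools and slide 2 the 12 h and 24 h pools. The only EtOH array before PHx on slide 2 is replicate 3, the one with the widely varying spots. Within slide 1 the diet difference before PHx was -0.13 for miR-26a and -0.15 for miR-26b, and within slide 2 it was -0.31 and -0.55 in the same order. With the slide as a block it was -0.20 for miR-26a (adjusted p 0.0684) and -0.31 for miR-26b (adjusted p 0.0409), so that miR-26b passed in that fit.

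Summed over their lists, marker miRNAs of endothelial, stellate, biliary and leukocyte cells also read lower in every EtOH liver before PHx than in any CHO liver. Among single miRNAs that separation was seen for 29 of 134 (21.6%), and no such share was computed for sums. Of the markers tested, 1 of 4 leukocyte (miR-142-3p) and 2 of 3 biliary miRNAs (miR-200a and miR-200b) passed the threshold as lower, against 12.7% of all miRNAs. Of the 5 stellate, 2 endothelial, 2 erythroid and 4 hepatocyte miRNAs tested, 0 passed. Differences below 0 were seen for 3 of 4 leukocyte, 3 of 3 biliary, 4 of 5 stellate, 2 of 2 endothelial, 2 of 2 erythroid and 1 of 4 hepatocyte miRNAs. The leukocyte miR-223 stood at 0.03 and the mesenchymal miR-145 at 0.24, neither past the threshold. Summed over the listed endothelial miRNAs, miR-126 and miR-126*, the scaled signal was 1064 to 1133 in EtOH livers and 1210 to 1300 in CHO livers. Stellate and mesenchymal miRNAs, 5 of 5 tested, summed to 524.7 to 594.1 in EtOH livers and 617.0 to 667.6 in CHO livers. Biliary epithelial miRNAs, 3 of 5 tested with miR-200c and miR-141 not detected, summed to 68.3 to 77.9 in EtOH livers and 87.3 to 102 in CHO livers. Leukocyte miRNAs, 4 of 6 tested with miR-142-5p not detected, summed to 303.1 to 320.5 in EtOH livers and 329.8 to 374.1 in CHO livers. The sums take in every listed miRNA on the array, and undetected ones enter at no less than the floor of 9.61 each. The biliary sums hold 2 such miRNAs and the leukocyte sums 1. Hepatocyte miRNAs overlapped, at 36057 to 42026 in EtOH livers and 36249 to 42951 in CHO livers. The erythroid pair overlapped too, at 629.0 to 899.3 in EtOH livers and 620.7 to 1230 in CHO livers. In pooled tissue fewer cells of a type and less RNA per cell cannot be told apart, and the part of these cells in the miR-26 values was not tested.

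After PHx both members read lower in EtOH livers at each time under the main scaling. MiR-26a read 1973, 1865, 1900 and 1731 in EtOH livers at 1, 6, 12 and 24 h, against 2167, 2160, 2043 and 1894 in CHO livers at the same times. MiR-26b read 1005, 949.2, 913.1 and 993.1 in EtOH livers at these times, against 1061, 1106, 1074 and 1008 in CHO livers. EtOH was below CHO at 4 of 4 times for both members, a pattern held by 37 of the 134 miRNAs (27.6%), and 18 (13.4%) combined it with complete separation before PHx. This order depends on the scaling. With the 75th percentile taken over all probes EtOH was above CHO at all 4 times, by 0.0329, 0.0459, 0.21 and 0.13 for miR-26a and by 0.0902, 0.0379, 0.083 and 0.24 for miR-26b at 1, 6, 12 and 24 h. That percentile was only 6.67 to 13.7 before scaling, against a floor of 9.61 after the main scaling. The median of all miRNAs for diet after PHx was then 0.19. Relative to it miR-26a was at -0.084 and miR-26b at -0.077, against -0.094 and -0.087 under the main scaling. In the authors' deposited table the difference of miR-26a was 0 at 1, 12 and 24 h.

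The diet difference averaged over the 4 times was -0.15 for miR-26a (SE 0.0618, 95% interval -0.28 to -0.01, limma adjusted p 0.145). For miR-26b it was -0.14 (SE 0.0867, 95% interval -0.33 to 0.05, limma adjusted p 0.313). Of all miRNAs, 10 (7.46%) passed for diet after PHx, and the median difference was -0.05. That count ran from 1 to 33 when 1 array at a time was left out, with 33 without EtOH before PHx replicate 3. The change of the diet difference with PHx was itself tested: it was 0.05 for miR-26a (adjusted p 0.918) and 0.15 for miR-26b (adjusted p 0.854). No miRNA passed that test in limma (0 of 134), and 9 (6.72%) had an unadjusted p under 0.05.

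At single times each diet had 1 pool, taken to vary like the pools before PHx. The EtOH minus CHO difference of miR-26a was -0.14 at 1 h, -0.21 at 6 h, -0.10 at 12 h and -0.13 at 24 h, with limma adjusted p between 0.406 and 0.982. That of miR-26b was -0.08, -0.22, -0.23 and -0.02 at the same times, with limma adjusted p between 0.583 and 1.00. Among all miRNAs these single-time contrasts had 1 call at 1 h (0.746%), 0 at 6 h (18, or 13.4%, with an unadjusted p under 0.05), 5 at 12 h (3.73%) and 0 at 24 h (7, or 5.22%, with an unadjusted p under 0.05), all in limma. At 24 h the 2 diets were closest for miR-26b, though its 95% interval, -0.46 to 0.42, covers the differences at the other times.

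**Figure D2:**
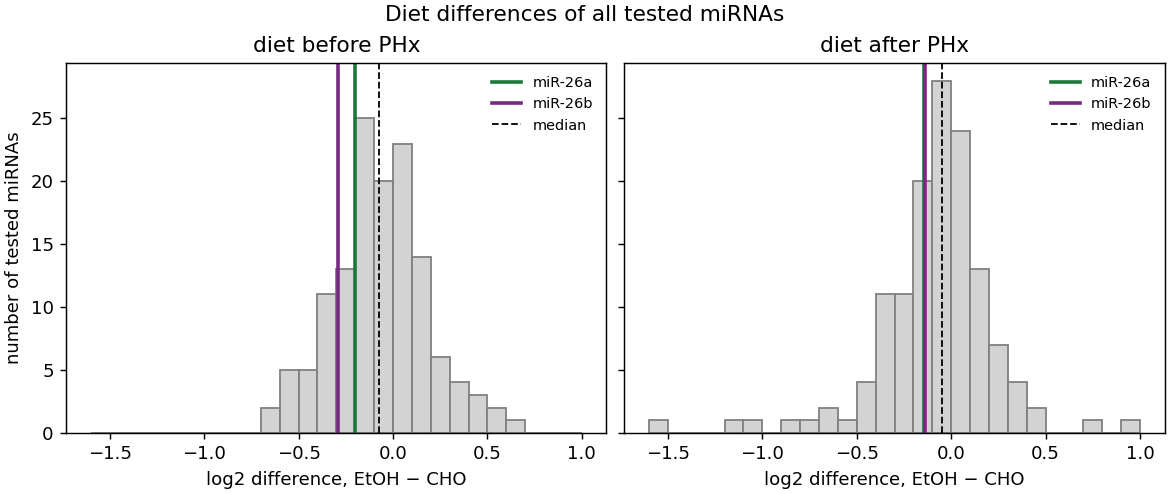
Histograms of the EtOH minus CHO log2 difference (x axis) over all 134 tested miRNAs (y axis, number of miRNAs) before PHx (left) and after PHx (right). Coloured lines mark miR-26a and miR-26b and the dashed line the median of all; before PHx they stand at -0.20, -0.29 and -0.08.

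Neither member passed the threshold for a change after PHx. Against the level before PHx, miR-26a differed by 0.02 at 1 h, -0.02 at 6 h, -0.05 at 12 h and -0.17 at 24 h, and miR-26b by 0.02, 0.01, -0.04 and -0.02 at the same times. The value at 24 h was the lowest of each diet for miR-26a, 1731 in EtOH livers and 1894 in CHO livers. The CHO value rests on 6 of the 10 spots, as the rest were flagged and left out. On every other array 9 or 10 spots of that probe were used. The log2 difference of miR-26a at 24 h, -0.17 (SE 0.0703, 95% interval -0.33 to -0.02), had an adjusted p of 0.180 in limma and an unadjusted p of 0.0333. At 24 h, 18 miRNAs (13.4%) passed, 16 of them higher (11.9%) and 2 lower (1.49%), with a median of all at 0.02. At the earlier times 0 of 134 passed at 1 h (4 with an unadjusted p under 0.05, 2.99%), 6 at 6 h (4.48%) and 8 at 12 h (5.97%), with no member among them.

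A leukocyte miRNA did pass at these times. MiR-223, which is abundant in neutrophils, was higher than before PHx by 0.67 at 6 h (limma adjusted p 0.0104), 0.92 at 12 h (limma adjusted p 0.000633) and 0.60 at 24 h (limma adjusted p 0.00875). It was 1 of the 4 leukocyte miRNAs tested, and at each of these times the other 3 did not pass. Of the 4, 1 had a difference below 0 at 6 h, 3 at 12 h and 2 at 24 h. Of the same list miR-146a was lower at the late than at the early times, with a log2 difference of -0.28 (limma adjusted p 0.0480). The list summed to 338.9 to 373.3 in EtOH livers after PHx and 303.1 to 320.5 in EtOH livers before PHx, and to 324.2 to 450.9 in CHO livers after PHx and 329.8 to 374.1 in CHO livers before PHx. The EtOH ranges did not overlap and the CHO ranges did, and the share of all miRNAs that separate this way was not computed. The part of these cells in the miR-26 values after PHx was not tested.

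Each diet's own change at 24 h was -0.14 for miR-26a in EtOH livers (adjusted p 0.491) and -0.21 in CHO livers (adjusted p 0.231). For miR-26b it was 0.11 in EtOH livers (adjusted p 0.788) and -0.16 in CHO livers (adjusted p 0.757), and neither passed. Without EtOH before PHx replicate 3 the EtOH change of miR-26b at 24 h was -0.00552. At 24 h, 10 miRNAs (7.46%) passed within EtOH and 7 (5.22%) within CHO. At 1, 6 and 12 h neither member passed in either diet. MiR-26a differed by 0.05 at 1 h and -0.03 at 6 h in EtOH livers and by -0.01, -0.02 and -0.10 at 1, 6 and 12 h in CHO livers. MiR-26b differed by 0.13 and 0.05 at 1 and 6 h in EtOH livers and by -0.08, -0.02 and -0.07 at 1, 6 and 12 h in CHO livers. At 12 h the EtOH change was -0.00080 for miR-26a and -0.0082 for miR-26b. Over all miRNAs the EtOH changes had 0 calls in limma at 1 h (3, or 2.24%, with an unadjusted p under 0.05), 2 at 6 h (1.49%) and 8 at 12 h (5.97%), and the CHO changes 1 (0.746%), 1 (0.746%) and 9 (6.72%) at the same times. Averaged over the 4 times the change was -0.05 for miR-26a (95% interval -0.15 to 0.05) and -0.01 for miR-26b (95% interval -0.15 to 0.13), in a contrast with 9 calls (6.72%). The late times (12 and 24 h) minus the early times (1 and 6 h) gave -0.11 for miR-26a and -0.05 for miR-26b, with 11 calls (8.21%) among all miRNAs, and early and late pools lie on different slides.

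**Figure D3:**
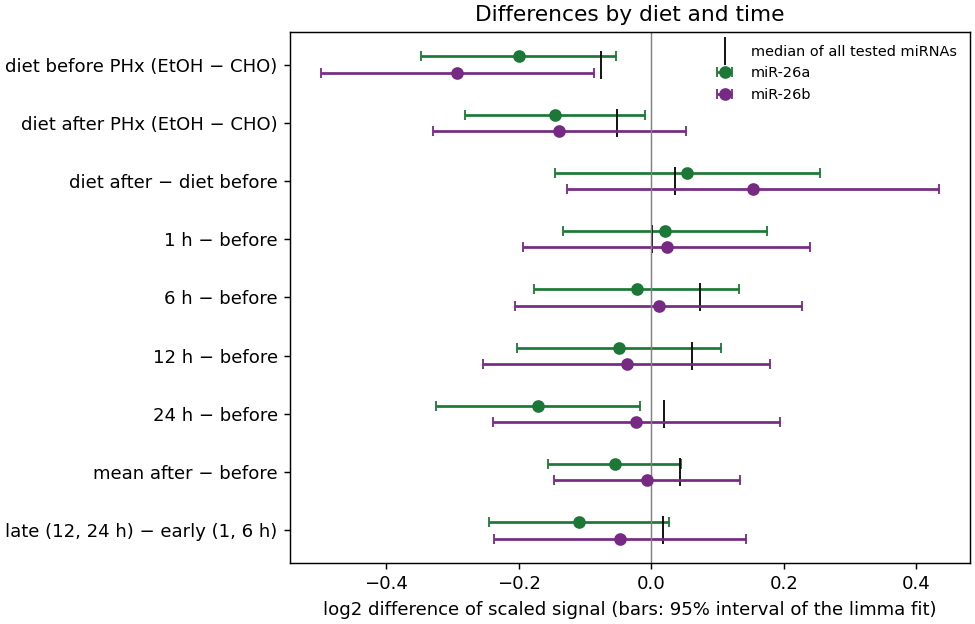
Log2 differences of scaled signal (x axis) for 9 contrasts (y axis) of miR-26a and miR-26b with their 95% intervals from the limma fit; black ticks mark the median of 134 miRNAs. Of the time contrasts, 24 h minus before is the one whose interval for miR-26a, -0.33 to -0.02, leaves out 0.

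Of the 8 pools, 7 were sampled both at PHx and later, so each can be set against itself. After minus before, miR-26a differed by -0.01 in the EtOH 1 h pool, -0.05 in the EtOH 6 h pool and 0.08 in the EtOH 12 h pool. The CHO pools gave 0.01 at 1 h, 0.01 at 6 h, -0.18 at 12 h and -0.16 at 24 h. The mean of -0.04 was lower after PHx in 4 of 7 pools, with an exact sign-flip permutation p of 0.344 (two-sided). MiR-26b differed by -0.02, -0.04 and 0.23 in the EtOH pools at 1, 6 and 12 h and by -0.03, -0.03, -0.11 and -0.17 in the CHO pools at 1, 6, 12 and 24 h. It was lower after PHx in 6 of 7 pools, with a mean of -0.02 and an exact p of 0.656.

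The exception was the EtOH 12 h pool, whose array before PHx is the one with the widely varying spots. Without that pool the mean change of miR-26b was -0.07 with an exact permutation p of 0.0313, the smallest that 6 pools allow. It was the only pool in which miR-26b rose, so leaving it out fixed this p in advance. The dimmer probe of miR-26b did not fall in all of these 6 pools, as it rose in the CHO 1 h pool (0.02) and the CHO 6 h pool (0.03). Over all 7 pools that probe was lower after PHx in 4, with a mean of -0.0095 and an exact permutation p of 0.891. The 1 h and 6 h pools of each diet share 1 animal, and without the 6 h pools the mean changes were -0.05 for miR-26a and -0.02 for miR-26b. No EtOH array before PHx for the 24 h pool was analysed here, so the change at 24 h within a pool is seen in CHO alone.

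**Figure D4:**
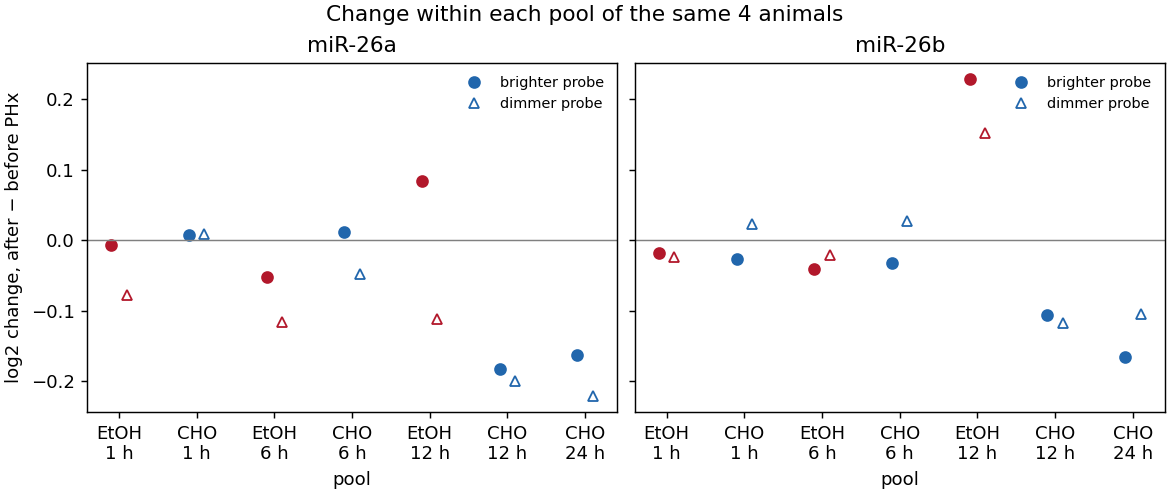
Log2 change after minus before PHx (y axis) in each of the 7 pools with both arrays (x axis, EtOH red and CHO blue) for miR-26a (left) and miR-26b (right). Filled circles are the brighter probe and open triangles the dimmer one; the EtOH 12 h pool is at 0.08 and -0.11 for miR-26a on its 2 probes.

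The 2 probes of each member gave a repeat reading. On its dimmer probe miR-26a read 1366, 1315 and 1320 in EtOH livers before PHx, against 1464, 1496, 1559 and 1434 in CHO livers before PHx, with no overlap. At 24 h that probe read 1135 in EtOH livers and 1230 in CHO livers, both below every array before PHx. The share of all miRNAs with that separation was not computed. On the brighter probe CHO at 24 h read 1894, above EtOH before PHx replicate 3 at 1792, while EtOH at 24 h, 1731, was the lowest. The dimmer probe gave a 24 h change of -0.25 with a limma adjusted p of 0.0217, which passes, whereas the brighter probe does not. Within pools it fell in 6 of 7, with a mean of -0.11 and an exact permutation p of 0.0313. This probe was looked at by itself after the values had been seen. The mean of both probes, which includes this probe and so is no separate reading, also passed at 24 h (-0.21, limma adjusted p 0.0220). So did the total signal of the miRNA (-0.35, limma adjusted p 0.0192). These 3 were the only calls for miR-26a at 24 h among 18 other settings. With total signal 24 miRNAs passed at 24 h, against 18 in the main fit. On the dimmer probe of miR-26b the 24 h change was 0.01.

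Setting the members against each other on the same array removes the scaling. The log2 signal of miR-26b minus that of miR-26a was -0.80 in EtOH livers and -0.91 in CHO livers at 24 h, against -1.20 to -0.91 before PHx in the 7 arrays. The mean was 0.14 higher at 24 h than before PHx, with an exact permutation p of 0.111. On the dimmer probes it was 0.26 higher with an exact permutation p of 0.0556, the smallest possible for 2 against 7 arrays. That test treats the arrays as separate, but CHO at 24 h and CHO before PHx replicate 4 come from the same pool. In that pool the value was -0.91 both before PHx and at 24 h. On the dimmer probes it was -0.53 before PHx and -0.41 at 24 h. The -1.20 before PHx came from EtOH before PHx replicate 3, the array with the widely varying spots. The comparison of 24 h with before PHx was also chosen after the values had been seen. Between diets before PHx the same quantity differed by -0.09 (exact p 0.343).

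Taking all groups in order of mean level, miR-26a was highest in CHO livers before PHx (2185), then CHO at 1 h, 6 h and 12 h. EtOH livers at 1 h, before PHx and at 12 h came next, with CHO at 24 h between EtOH at 12 h and EtOH at 6 h. EtOH at 24 h was lowest. For miR-26b the means of all 5 CHO groups, 1125 in CHO livers before PHx to 1008 in CHO at 24 h, lay above those of all 5 EtOH groups, 1005 in EtOH at 1 h to 913.1 in EtOH at 12 h. Single arrays of the diets overlapped, as EtOH before PHx replicate 1 read 1018, above CHO at 24 h. The share of all miRNAs whose group means separate this way was not computed. No step between neighbours in either order exceeded the standard error of a difference between single pools, with a largest step of 0.107 against 0.108 for miR-26a and 0.0741 against 0.182 for miR-26b, in log2. Over all arrays miR-26a spanned 1.34-fold and miR-26b 1.48-fold.

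The members followed each other over the 15 arrays at a Pearson correlation of 0.80 (Spearman 0.84), which was 0.83 without EtOH before PHx replicate 3. The arrays share their pools and scaling, so this is a description. MiR-26a was most like miR-125b-5p (r = 0.90), a miRNA shared by many tissues, then miR-150 (0.82), a lymphocyte miRNA, and miR-26b. It was least like miR-425 (-0.68), miR-34a (-0.67), which p53 induces, and miR-151 (-0.65). MiR-26b was most like miR-99a (0.93), miR-322 (0.82) and miR-125b-5p (0.80), and least like miR-96 (-0.83), miR-30a (-0.79) and miR-152 (-0.74). Without EtOH before PHx replicate 3 the r of miR-26b with miR-30a was -0.46.

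The miRNAs most like the family were also lower in EtOH livers before PHx, 3 of them past the threshold. Before PHx miR-125b-5p differed by -0.39 (adjusted p 0.0152), miR-99a by -0.44 (adjusted p 0.0152) and miR-322 by -0.53 (adjusted p 0.00484), all lower in EtOH livers and past the limma threshold. MiR-150 differed by -0.38 (adjusted p 0.0534). At the other end miR-152 differed by 0.36 (adjusted p 0.0147) and miR-96 by 0.62 (adjusted p 0.0244), both higher in EtOH livers. These neighbours were picked by likeness over the same arrays, so the agreement of sign carries no weight of its own.

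Other miRNAs reported to restrain cyclins, their kinases or Myc were counted alongside the family. Of 34 listed, 28 were tested. Before PHx 5 passed the threshold as lower in EtOH livers and 0 as higher, against 12.7% of all miRNAs that passed as lower: miR-200b, miR-322, miR-125b-5p, miR-100 and miR-99a. Of the 28, 18 had a difference below 0. The median difference of the 28 was -0.09, against -0.08 over all 134 miRNAs. MiR-100, a relative of miR-99a, differed by -0.39 (adjusted p 0.0167) and miR-200b, an epithelial miRNA, by -0.57 (adjusted p 0.0152). After PHx miR-34a alone of the list passed for diet, 0.95 higher in EtOH livers (SE 0.248, limma adjusted p 0.0416), against 7.46% of all miRNAs. At 24 h miR-34a and miR-29b rose, by 1.20 and 0.46 against the level before PHx (limma adjusted p 0.0144 and 0.00886), against 11.9% of all miRNAs that passed as higher. None of the list passed as lower at 24 h, and 12 of the 28 had a difference below 0. The list was written with earlier results of these data known.

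Processing decided whether the diet difference before PHx passed. The mean of the 2 probes gave -0.18 for miR-26a (adjusted p 0.0409) and -0.27 for miR-26b (adjusted p 0.0397), both past the threshold in limma. In the authors' deposited table the difference was 0.0021 for miR-26a and -0.12 for miR-26b. That table takes 4 distinct values for miR-26a and 5 for miR-26b over the 15 arrays, so it resolves small differences coarsely.

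**Figure D5:**
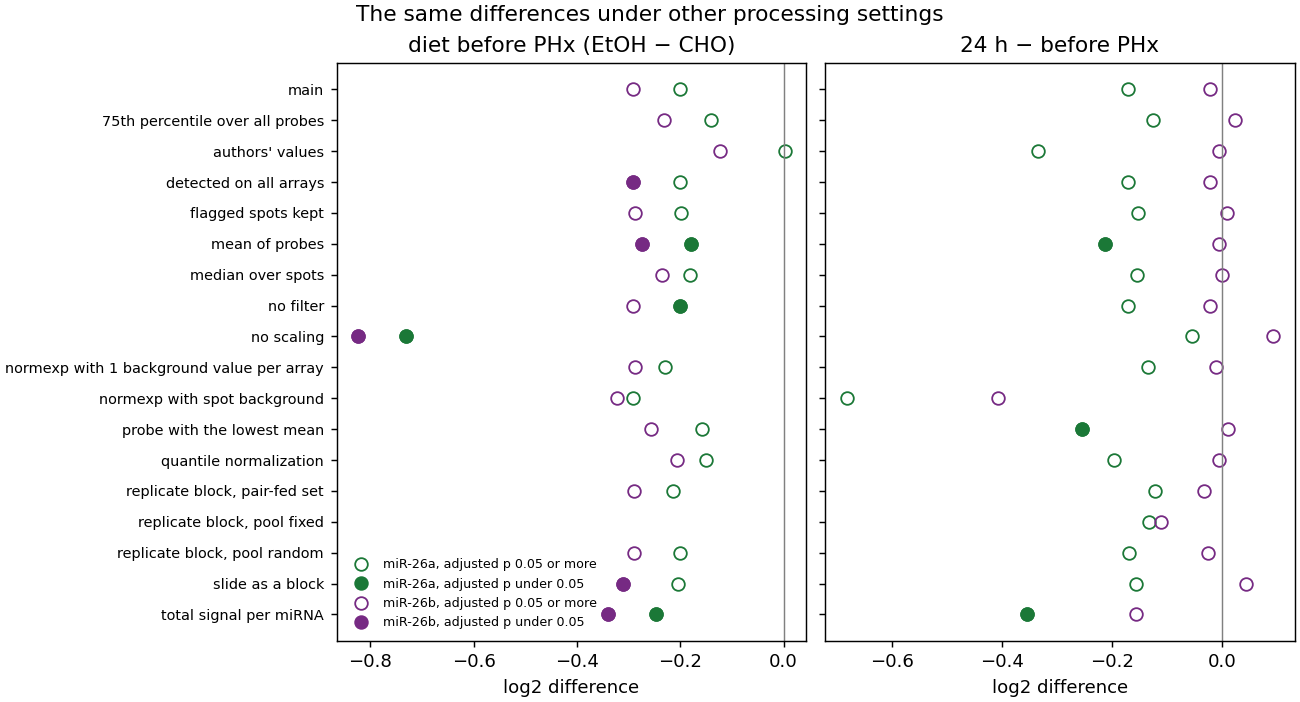
Log2 difference (x axis) under the main and the other settings (y axis) for diet before PHx (left) and 24 h minus before PHx (right). Filled points have a limma adjusted p under 0.05; miR-26a before PHx ranges from -0.73 with no scaling to 0.0021 in the authors' values.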

How the data were processed

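The scanner files hold spot intensity on a linear scale, background-subtracted by Agilent Feature Extraction (10.5.1.1 per the file headers, against 10.7.3.1 in the submitters' processing notes). The authors' deposited table holds log2 values, with column medians from 0.106 to 1.10 and with scale and centring unknown. Within each array its order of detected miRNAs was that of the software's total signal (Spearman 1).

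Unflagged non-control spots were averaged per probe (938 probes, 350 miRNAs). Arrays were scaled to the 75th percentile of the 185 probes detected on all arrays, floored at 9.61 and log2-transformed. Each miRNA was read from its probe of highest mean. A probe was detected where a share of 0.5 or more of spots rose well above background, and 134 miRNAs detected on 3 or more arrays were tested.

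Limma 3.58.1 (R 4.3.3) fitted all 15 arrays with 1 diet term before PHx, 1 after it and 1 term per time (8 residual degrees of freedom). Single times came from a fit of 10 cells (5 residual degrees of freedom). P-values were Benjamini-Hochberg adjusted over 134 miRNAs. Two-sided exact permutation p-values of 2 groups are 2 times the smaller one-sided p. The number of arrays limits the precision, and the median SE of diet before PHx was 0.11. The fit was tested on simulated data. The files hold no mean spot signal, so normexp (offset 50) used the median signal. Pools pair by the labels' animal identifiers, and the correlation within pools was 0.114.

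The members, lists and tests were chosen with earlier results of these data known. Named miRNAs are the members, the 3 most and 3 least alike of each, called list members and, for the cell type lists, further markers named to describe them, miR-145 among them after its value was seen; the likeness rule also names miR-26b for miR-26a. Alternatives covered scaling, background, probe summary, filters, slide and pool blocks, the authors' values and leaving out arrays or pools.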

Additional observations from a re-analysis of the deposited data

How the results depend on the processing

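Before PHx both members were lower in EtOH livers under every setting run except the authors' values for miR-26a, but passed the threshold under some settings and not others. The mean of probes gave -0.18 for miR-26a and -0.27 for miR-26b before PHx, -0.16 for miR-26a after PHx, -0.21 for miR-26a at 24 h and -0.0766 for its within-pool change, all past 0.05. Total signal gave -0.25, -0.34 and -0.35 for miR-26a before PHx, miR-26b before PHx and miR-26a at 24 h, all past it. Without scaling the values before PHx were -0.73 and -0.82 and passed, while the median of all miRNAs moved by -0.45. Calls were also gained for miR-26a before PHx with no detection filter (-0.20), for miR-26b before PHx among miRNAs detected on all arrays (-0.29) and with slide as a block (-0.31). Quantile normalization gained calls for the mean change (-0.17), the CHO change at 12 h (-0.32) and the within-pool change (-0.17) of miR-26a. The dimmer probe, looked at after the data were seen, gained miR-26a at 24 h (-0.25) and its within-pool change (-0.11). Normexp with spot background gave CHO changes at 24 h of -1.37 and -1.005 for miR-26a and miR-26b, and there 2 arrays had a median spot over 2 times that of the median array. The median of all miRNAs moved by 0.24 for diet after PHx with the percentile over all probes, and under normexp with spot background by 0.44 before PHx and 0.71 at 24 h. With normexp and 1 background per array it moved by 0.27 before PHx.

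The sign turned, or the value became 0, in 122 of 726 member values under other settings. It turned in 27 of 630 when an array or pool was left out. Diet before PHx enters these counts with its limma fit and again with its exact test. The cause of the turned signs was not tested. With the 75th percentile taken over all probes, miR-26a turned to 0.10 for diet after PHx, -0.00205 for change at 1 h, 0.0329 for diet at 1 h, 0.0459 for diet at 6 h, 0.21 for diet at 12 h, 0.13 for diet at 24 h and 0.00903 for EtOH change at 24 h. With the 75th percentile taken over all probes, miR-26b turned to 0.11 for diet after PHx, -0.12 for change at 6 h, 0.0237 for change at 24 h, 0.0902 for diet at 1 h, 0.0379 for diet at 6 h, 0.083 for diet at 12 h and 0.24 for diet at 24 h. In the authors' deposited table, miR-26a turned to 0.00215 for diet before PHx, -0.0256 for the change of the diet difference, -0.10 for change at 1 h, 0 for diet at 1 h, -0.10 for EtOH change at 1 h, 0 for diet at 12 h, 0 for diet at 24 h and 0.00215 for the exact test of diet before PHx. In the authors' deposited table, miR-26b turned to -0.0389 for the change of the diet difference, -0.00431 for change at 1 h, -0.0682 for change at 6 h, 0.084 for change at 12 h, 0.0018 for the mean change, 0.0761 for late minus early, -0.11 for EtOH change at 6 h, 0.0143 for EtOH change at 12 h, 0.15 for CHO change at 12 h and 2.43e-05 for the within-pool change. With marked spots kept, miR-26b turned to -0.00957 for change at 6 h, 0.00934 for change at 24 h, 0.0062 for the mean change and 0.0117 for EtOH change at 12 h. With the mean of probes, miR-26a turned to -0.00384 for change at 1 h. With the mean of probes, miR-26b turned to 0.00153 for the mean change and 0.00965 for EtOH change at 12 h. With the median over spots, added later, miR-26a turned to 0.000443 for CHO change at 6 h and 0.00507 for EtOH change at 12 h. With the median over spots, added later, miR-26b turned to 0.000502 for the mean change, 0.0135 for CHO change at 6 h and 0.0239 for diet at 24 h. Without scaling, miR-26a turned to 0.16 for change at 12 h, 0.0703 for the mean change, 0.0563 for CHO change at 1 h, 0.14 for EtOH change at 6 h, 0.47 for EtOH change at 12 h, 0.27 for diet at 24 h, 0.45 for EtOH change at 24 h and 0.0164 for the within-pool change. Without scaling, miR-26b turned to -0.0233 for change at 6 h, 0.17 for change at 12 h, 0.0934 for change at 24 h, 0.12 for the mean change, 0.0221 for late minus early, 0.46 for EtOH change at 12 h, 0.38 for diet at 24 h and 0.0368 for the within-pool change. Under normexp with 1 background per array, miR-26a turned to 0.00995 for EtOH change at 6 h and 0.0385 for EtOH change at 12 h. Under normexp with 1 background per array, miR-26b turned to 0.0049 for the mean change, 0.0267 for EtOH change at 12 h and 0.0476 for diet at 24 h. Under normexp with spot background, miR-26a turned to 0.16 for diet after PHx, 0.0188 for change at 12 h, 0.0424 for EtOH change at 6 h, 0.0979 for EtOH change at 12 h, 1.08 for diet at 24 h and 0.00218 for EtOH change at 24 h. Under normexp with spot background, miR-26b turned to 0.10 for diet after PHx, 0.0111 for change at 12 h, 0.0599 for EtOH change at 12 h and 0.87 for diet at 24 h. The diet values at 24 h under that setting, 1.08 for miR-26a (limma adjusted p 0.00598) and 0.87 for miR-26b (limma adjusted p 0.0204), passed the threshold in the opposite direction to the main values. On the dimmer probe, added later, miR-26a turned to -0.0195 for the change of the diet difference, -0.0286 for change at 1 h and -0.0434 for EtOH change at 1 h. On the dimmer probe, added later, miR-26b turned to -0.00848 for change at 6 h, 0.000379 for change at 12 h, 0.0118 for change at 24 h, 0.00908 for the mean change, -0.00682 for EtOH change at 6 h and 0.0275 for EtOH change at 12 h. After quantile normalization, miR-26a turned to -0.0371 for change at 1 h, -0.0743 for EtOH change at 1 h, 0 for CHO change at 1 h and 0 for diet at 12 h. After quantile normalization, miR-26b turned to -0.0224 for change at 6 h, -0.0332 for EtOH change at 6 h and 0.0551 for diet at 24 h. With pair-fed sets as replicate block, miR-26a turned to -0.000133 for change at 1 h and 0.00513 for EtOH change at 12 h. With pair-fed sets as replicate block, miR-26b turned to -0.0222 for change at 1 h, -0.0366 for change at 6 h, 0.0612 for change at 12 h, 0.0439 for late minus early, -0.00186 for EtOH change at 6 h, 0.0885 for EtOH change at 12 h and 0.0338 for CHO change at 12 h. With the pool as a fixed replicate block, miR-26a turned to -0.000133 for change at 1 h. With the pool as a fixed replicate block, miR-26b turned to -0.0222 for change at 1 h, -0.0366 for change at 6 h, 0.0612 for change at 12 h and 0.00485 for late minus early. With slide as a block, miR-26a turned to 0.015 for EtOH change at 12 h. With slide as a block, miR-26b turned to -0.0235 for change at 1 h, -0.0352 for change at 6 h, 0.0288 for change at 12 h, 0.0433 for change at 24 h, 0.00335 for the mean change, 0.0654 for late minus early and 0.0669 for EtOH change at 12 h. Using total signal per miRNA, miR-26a turned to 0.0223 for EtOH change at 12 h. Using total signal per miRNA, miR-26b turned to 0.000811 for change at 12 h, 0.0823 for EtOH change at 12 h and 0.0137 for diet at 24 h. Within slide 1, miR-26a turned to -0.0392 for the change of the diet difference. Within slide 1, miR-26b turned to -0.0235 for change at 1 h and -0.0352 for change at 6 h. Within slide 2, miR-26b turned to 0.0693 for change at 12 h and 0.0838 for change at 24 h.

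Leaving out 1 array or pool at a time, diet before PHx ran from -0.23 to -0.16 for miR-26a and from -0.37 to -0.17 for miR-26b. The change of miR-26a ran from -0.000341 to 0.0360 at 1 h and from -0.0663 to 0.0224 at 6 h. That of miR-26b ran from -0.0358 to 0.0638 at 1 h, -0.0475 to 0.0660 at 6 h, -0.10 to 0.0273 at 12 h and -0.10 to 0.0557 at 24 h, with a mean change of -0.0653 to 0.0311 and a within-pool change of -0.0650 to 0.000807. The CHO change of miR-26a ran from -0.0252 to 0.0177 at 1 h and -0.0298 to 0.0132 at 6 h, and its EtOH change from -0.0706 to 0.00217 at 6 h and -0.0434 to 0.0293 at 12 h. The EtOH change of miR-26b ran from -0.0707 to 0.12 at 6 h, -0.13 to 0.0661 at 12 h and -0.00552 to 0.19 at 24 h.

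Counts of calls over all miRNAs moved more. For diet before PHx the count of 21 became 2 with the percentile over all probes, 13 with no filter, 76 without scaling, 7 under normexp with 1 background, 0 under normexp with spot background, 9 after quantile normalization, 37 within slide 1 and 1 within slide 2. For diet after PHx the count of 10 became 6, 2, 2, 4, 0 and 6 under the first 6 of these settings, 24 with the mean of probes, 22 on the dimmer probe, 27 with total signal, 26 within slide 1 and 0 within slide 2. At 24 h the count of 18 became 11, 11, 6, 3 and 0 under the first 5, 5 with pair-fed sets and 0 with pools as the replicate block, and 9 within slide 2. At 12 h the count of 8 became 3 with the percentile over all probes, 2 and 0 under the normexp settings, 3 with pools as block and 13 with total signal. At 6 h the count of 6 became 2 both in the authors' values and with the all-probe percentile, 0 without scaling and under both normexp settings, 3 with pair-fed sets and 14 within slide 1, and at 1 h the count of 0 became 1 there. Late minus early, 11 calls, had 7 with the percentile over all probes, in the authors' values and with the mean of probes, 5 with no filter, 2 without scaling, 2 and 0 under normexp, 0 under both fixed blocks and 3 with slide as a block. The mean change, 9 calls, had 5, 15, 1, 0 and 14 with the percentile over all probes, the authors' values, the normexp settings and quantile normalization. Leaving out arrays gave 14 to 34 calls for diet before PHx and 1 to 33 for diet after PHx, the highest in both without EtOH before PHx replicate 3. It gave 0 to 1 at 1 h, 0 to 8 at 6 h, 11 to 21 at 24 h and 6 to 17 for late minus early.

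Replicate blocks were the pool, fixed or random, and the pair-fed set, which joins the EtOH and CHO pools of the same time. Together these fits called 0 of 74 member values. The main fit called no member either, so there was no call to lose. With the pool fixed, the diet differences before and after PHx could not be estimated. With the pool as a random block diet before PHx was -0.20 for miR-26a and -0.29 for miR-26b. Single pools at each time limit the values after PHx.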
